A study of Mus musculus with 6 samples.

Results

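The genes described here are 10 imprinted genes with roles in fetal growth, H19, Igf2, Igf2r, Meg3, Peg3, Mest, Plagl1, Grb10, Ndn and Peg10. They were taken by gene name from a deposited table of 55401 gene identifiers, and all 10 were present and tested. The table holds RNA sequencing counts from mouse back skin at E15.5, a day of fetal life when the epidermis is stratifying over a dermis that still grows. The 2 groups were Prmt5 cKO embryos, with a conditional knockout of the arginine methyltransferase gene Prmt5, and control embryos, with 3 embryos and 3 libraries each. The study's title places the loss in the epidermis, while the floxed allele, the Cre driver and the genotype of the controls are not spelled out in the sample labels. The labels give back skin as a whole and name no separation of epidermis from dermis, so each library mixes RNA of both.

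Imprinted genes are expressed mainly from the copy inherited from one parent, which DNA methylation marks set in the germ line decide. H19, Igf2r, Meg3 and Grb10 are maternally expressed in most mouse tissues, and Igf2, Peg3, Mest, Plagl1, Ndn and Peg10 are paternally expressed. Many of them are high in fetal mesenchyme and muscle and are switched down after birth. The counts do not tell the parental copies apart, so nothing below measures imprinting itself.

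Prmt5 was lower in the cKO libraries, at 27.1, 30.7 and 26.8 CPM (counts relative to library size, with library sizes scaled by TMM, the trimmed mean of M-values) in cKO 1 to 3, against 69.7, 40.1 and 67.9 CPM in control 1 to 3. In the edgeR fit of all genes (quasi-likelihood test) this was a log2 fold change of -1.07 ± 0.19 (SE; adjusted p 0.00292). With libraries scaled instead to 15 pan-epithelial genes, Prmt5 was at -0.11 with an adjusted p of 0.566. Library totals ran from 35667634 to 66122667 counts, and log values of libraries within a group correlated at 0.977 to 0.985 across genes. Levels of cell type markers differed between the groups. Of the pan-epithelial list 14 of 15 genes were lower and St14 was higher, with summed levels of 2571 to 2916 CPM in cKO and 5142 to 5537 CPM in control libraries. All 10 genes of the differentiated epidermis list were lower, with sums of 314 to 408 CPM in cKO and 17210.0 to 23340.0 CPM in control libraries. All 15 genes of the dermal fibroblast list were higher, with sums of 65290.0 to 86630.0 CPM in cKO and 43780.0 to 54700.0 CPM in control libraries. The skeletal muscle list was higher in all of its 15 genes as well, with sums of 8340.0 to 8564 CPM in cKO and 3591 to 4996 CPM in control libraries. In bulk skin, fewer cells of a type and less RNA per cell cannot be told apart.

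All 10 imprinted genes were higher in Prmt5 cKO skin with TMM scaling, and their groups of 3 libraries did not overlap. With libraries scaled to the dermal fibroblast list 8 of the 10 had a negative fold change, with H19 alone called lower. With scaling to the skeletal muscle list all 10 had a negative fold change. With TMM scaling the edgeR test called 16.3% of all genes tested higher and 19.6% lower, and 23.3% of all genes had every cKO library above every control library. The median log2 fold change was 0.47 over the 10 genes and -0.01 over the 19227 genes tested. Meg3 had the largest of the 10 at 0.88 and H19 the smallest at 0.27. The 4 maternally expressed genes had a median of 0.43 and the 6 paternally expressed genes a median of 0.50, and the ranges of both sets overlapped. The dermal fibroblast list, whose members include Col1a1 and Pdgfra, had a median of 0.47 in the same fit, and the skeletal muscle list a median of 0.86. The part of any change in tissue makeup in the rise of the imprinted genes was not tested.

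**Figure D1:**
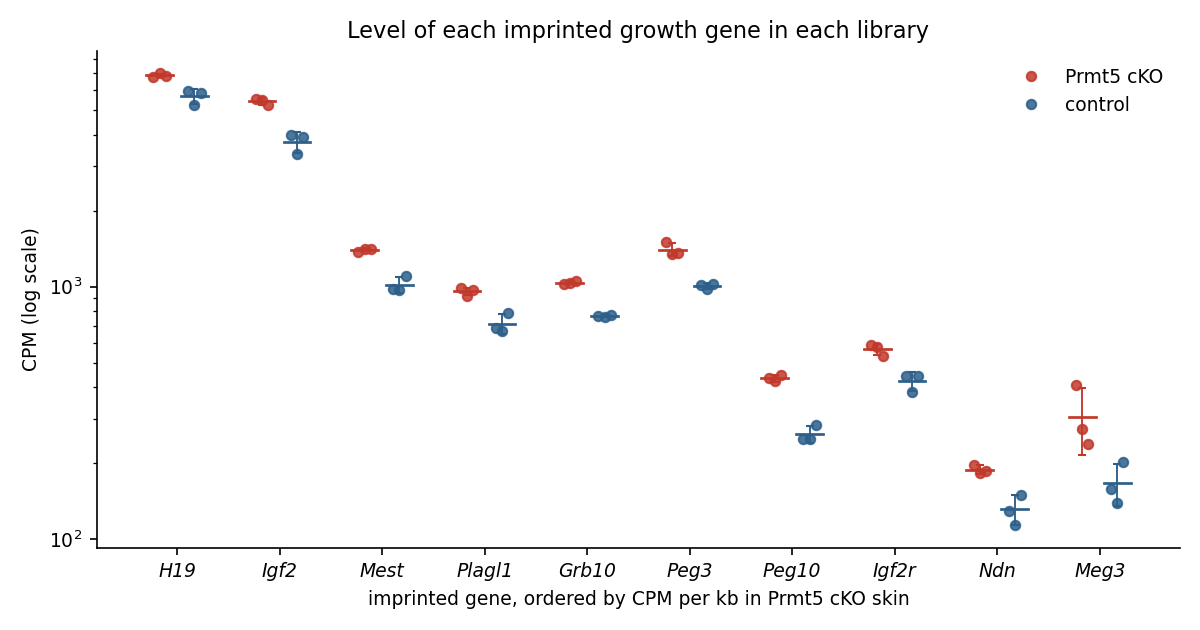
Level of each of the 10 imprinted genes in CPM (log axis) in the 3 Prmt5 cKO libraries (red) and the 3 control libraries (blue), with a horizontal line at the mean and a bar of 1 SD, genes ordered by CPM per kb of exon. With TMM scaling the red points lie above the blue points for every gene. The sign of the fold change turned for 8 of the 10 genes with fibroblast scaling, of which H19 alone was called lower, and for 10 with muscle scaling.

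Igf2, H19, Igf2r and Grb10 bear on insulin-like growth factor signalling. Igf2 encodes insulin-like growth factor 2, the main growth factor of the fetus, and lies on chromosome 7 from 142650766 to 142666816 (minus strand, GRCm38). It measured 5563, 5489 and 5222 CPM in cKO 1 to 3, against 3991, 3341 and 3923 CPM in control 1 to 3. The lowest cKO library stood above the highest control library, and control 2 was the low one of its group. The fold was 1.45, a log2 fold change of 0.53 ± 0.07 (SE; adjusted p 6.03e-04 by edgeR).

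H19, a long noncoding RNA that shares enhancers with Igf2, lies 72.6 kb from it (chromosome 7, 142575529 to 142578143, minus strand). It measured 6799, 6999 and 6833 CPM in cKO 1 to 3, against 5973, 5229 and 5869 CPM in control 1 to 3. The 3 cKO values were close together and all above the controls, by the smallest step among the 10 genes, a fold of 1.21. In log2 this was 0.27 ± 0.06 (SE; adjusted p 0.00598 by edgeR). H19 and Igf2 together took 1.231%, 1.267% and 1.246% of all counts in cKO 1 to 3, against 0.964%, 0.858% and 0.964% in control 1 to 3. Ranked by CPM, H19 was the fifth and Igf2 the sixth most abundant of the genes tested.

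Igf2r encodes the receptor that binds IGF2 and carries it to lysosomes for breakdown (chromosome 17, 12682406 to 12769664, minus strand). It measured 586, 576 and 529 CPM in cKO 1 to 3, against 444, 380.5 and 440.5 CPM in control 1 to 3. All cKO libraries were higher, with control 2 again the lowest library, and the log2 fold change was 0.42 ± 0.07 (SE; adjusted p 0.00246 by edgeR). Grb10 encodes an adaptor that binds the insulin and IGF1 receptors and dampens their signal (chromosome 11, 11930508 to 12038683, minus strand). Its values were 1028, 1031 and 1052 CPM in cKO 1 to 3, against 768, 754 and 773 CPM in control 1 to 3. These were the tightest groups of the 10 genes, and the log2 fold change was 0.44 ± 0.04 (SE; adjusted p 9.89e-05 by edgeR).

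Plagl1 and Peg3 encode zinc finger proteins. Plagl1, a transcription factor known in mouse for regulating other imprinted genes (chromosome 10, 13060504 to 13131694, plus strand), measured 984, 919 and 969 CPM in cKO 1 to 3, against 684, 665 and 787 CPM in control 1 to 3. The gap between the groups was larger than the spread within either, with a log2 fold change of 0.43 ± 0.07 (SE; adjusted p 0.00186 by edgeR). Peg3 (chromosome 7, 6703892 to 6730431, minus strand) measured 1502, 1345 and 1360.4 CPM in cKO 1 to 3, against 1017, 975 and 1021 CPM in control 1 to 3. Here cKO 1 was above the other cKO libraries, and the log2 fold change was 0.48 ± 0.06 (SE; adjusted p 2.84e-04 by edgeR).

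Mest, Ndn and Peg10 are the other paternally expressed protein-coding genes. Mest encodes a membrane protein of the alpha/beta hydrolase fold (chromosome 6, 30723547 to 30748465, plus strand) and measured 1375, 1405 and 1414 CPM in cKO 1 to 3, against 979.8, 968 and 1099 CPM in control 1 to 3. The cKO values were nearly equal and all higher, and the log2 fold change was 0.46 ± 0.06 (SE; adjusted p 4.59e-04 by edgeR). Ndn encodes necdin, a protein of the MAGE family that restrains cell growth (chromosome 7, 62346569 to 62350262, plus strand), and measured 197, 182 and 185 CPM in cKO 1 to 3, against 129.6, 114 and 149 CPM in control 1 to 3. Both genes had separate groups, with the control libraries of Ndn the more spread, and Ndn had a log2 fold change of 0.52 ± 0.09 (SE; adjusted p 0.00271 by edgeR). Peg10, derived from a retrotransposon and known in mouse for its role in the placenta (chromosome 6, 4747306 to 4760517, plus strand), measured 433, 421 and 448 CPM in cKO 1 to 3, against 249, 248 and 284 CPM in control 1 to 3. It had the smallest adjusted p of the 10 genes, 5.57e-05 by edgeR, with a fold of 1.67 and a log2 fold change of 0.74 ± 0.06 (SE).

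Meg3, a long noncoding RNA (chromosome 12, 109541001 to 109571726, plus strand), was the most variable member. It measured 407, 273 and 237 CPM in cKO 1 to 3, against 158, 139 and 201 CPM in control 1 to 3. The groups did not overlap, but cKO 1 stood far above the other cKO libraries and control 3 lay near cKO 3. The coefficient of variation was 29.3% in cKO and 19.1% in control libraries. With all libraries the log2 fold change was 0.88 ± 0.20 (SE; adjusted p 0.0106 by edgeR), and without cKO 1 it was 0.62 (adjusted p 0.0184 by edgeR). Among the cKO libraries, cKO 1 also had the highest sum of dermal fibroblast genes (86630.0 CPM). It was highest among them for the endothelial, cartilage, leukocyte, and Schwann cell and neuron lists too. The part of these in the Meg3 value was not tested.

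In 4 of these genes lie 5 miRNA hairpins, and their 9 mature sequences are shown because each lies within a host gene that was higher here with TMM scaling. The libraries were made from mRNA and do not measure mature miRNAs. Capitals mark the seed (bases 2 to 8), which chooses targets, and the 9 seeds all differ. The sequences are from RefSeq on GRCm38.p6, with H19 carrying miR-675, Igf2 carrying miR-483, Mest carrying miR-335, and Meg3 carrying miR-770 and miR-1906.
mmu-miR-675-5p: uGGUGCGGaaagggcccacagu
mmu-miR-675-3p: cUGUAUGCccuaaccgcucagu
mmu-miR-483-5p: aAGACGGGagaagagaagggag
mmu-miR-483-3p: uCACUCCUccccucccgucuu
mmu-miR-335-5p: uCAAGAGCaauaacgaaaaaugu
mmu-miR-335-3p: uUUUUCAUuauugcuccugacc
mmu-miR-770-5p: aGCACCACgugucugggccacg
mmu-miR-770-3p: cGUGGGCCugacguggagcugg
mmu-miR-1906: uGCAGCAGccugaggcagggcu

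Levels were compared between genes per length, as CPM per kb of annotated exon. In cKO skin the order was H19 (2796), Igf2 (948), Mest (354), Plagl1 (122), Grb10 (114), Peg3 (105), Peg10 (65.1), Igf2r (60.6), Ndn (50.9) and Meg3 (16.9), and no neighbours in that order had overlapping libraries. In control skin the order was H19 (2313), Igf2 (656), Mest (257), Plagl1 (91.0), Grb10 (84.2), Peg3 (75.4), Igf2r (45.3), Peg10 (39.0), Ndn (35.5) and Meg3 (9.19). There the ranges over libraries overlapped for Igf2r and Peg10 and for Peg10 and Ndn, although within each control library Igf2r was above Peg10 and Peg10 above Ndn. On the CPM per kb scale Peg10 was above Igf2r within each cKO library and below it within each control library. These orders depend on the annotation, since all annotated exons of a gene were summed, 18.09 kb for Meg3 and 3.69 kb for Ndn. In mean CPM Meg3 was above Ndn, at 305 against 188 in cKO and 166 against 131 in control skin.

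The members shared their lowest library among the controls but not among the cKO libraries. Control 2 was the lowest control library for all 10 genes, and control 3 the highest for 7 of them. The highest cKO library was cKO 1 for 6 genes, cKO 2 for 1 and cKO 3 for 3. The lowest was cKO 1 for 3 genes, cKO 2 for 4 and cKO 3 for 3. Control 2 was also the control library with the smallest sums of dermal fibroblast (43780.0 CPM) and skeletal muscle genes (3591 CPM). Its sums of pan-epithelial (5142 CPM) and differentiated epidermis genes (17210.0 CPM) were the smallest as well, as were those of the endothelial, cartilage, adipocyte and erythroid lists. The leukocyte list was lowest in control 1 and the Schwann cell and neuron list in control 3. The part of these sums in the 10 values was not tested. For 8 of the 10 genes the coefficient of variation was smaller among cKO libraries. The shares of all genes with these orders and spreads were not counted. The most alike pair of members over the 6 libraries was Mest and Plagl1, with a root mean square difference of 0.0442 between their centred log2 CPM. The least alike was H19 and Meg3, at 0.395.

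**Figure D2:**
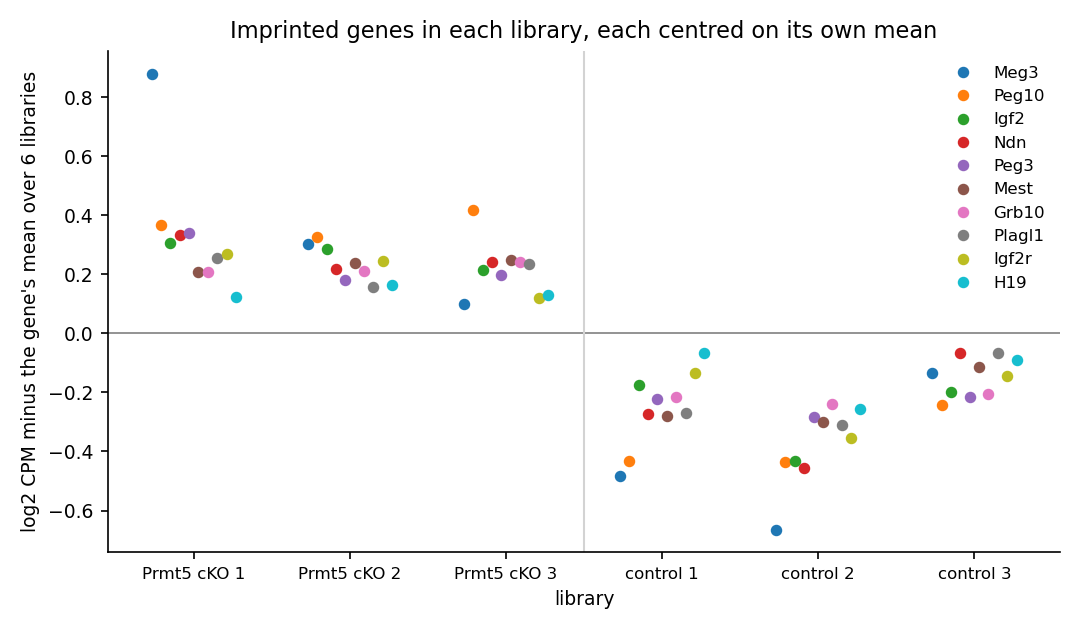
Log2 CPM of each of the 10 imprinted genes in each library minus that gene's mean over the 6 libraries; each colour is a gene and each column a library. Meg3 in cKO 1 lies highest of all points, and in the control 2 column the points are the lowest among the controls for all 10 genes. The split into cKO above and control below holds for TMM scaling. Fibroblast or muscle scaling turned the sign of the fold change for 8 or 10 genes, with H19 alone called lower at fibroblast scaling.

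For each member, the gene outside the set with the most similar pattern over the 6 libraries was found among 12101 genes. These had a mean log2 CPM of at least 2, and genes with provisional names (such as Gm, Rik or clone names) were left out. Igf2r lay nearest to Matn2, at a root mean square difference of 0.0180 in centred log2 CPM, and Peg3 nearest to Dmwd at 0.0169. The nearest genes were Cnn3 for H19 (0.0228), Arhgef40 for Igf2 (0.0222), Mest's was Plin2 (0.0259), and Grb10's was Pkig (0.0252). Plagl1 lay nearest to Mapk8ip3 (0.0311), Peg10 to Aspn (0.0331) and Ndn to Cd38 (0.0410). Such neighbours were many: 989 genes lay within 0.1 of H19, 754 of Grb10 and 121 of Peg10. Meg3 alone had no gene within 0.1 among the genes compared, and Fndc1 was the closest of them at 0.130.

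Because a ratio of 2 genes within a library does not depend on how libraries are scaled, 8 pairs were compared that way. The log2 ratio of H19 to Igf2 counts was 0.290, 0.351 and 0.388 in cKO 1 to 3, against 0.582, 0.646 and 0.581 in control 1 to 3. Every cKO library was lower, by 0.26 on average. An exact two-sided permutation test gave p = 0.1, the smallest that 3 libraries against 3 allow, and 0.16 after adjustment over the 8 pairs. The log2 ratio of Igf2 to its clearance receptor Igf2r was 3.25, 3.25 and 3.30 in cKO 1 to 3, against 3.17, 3.13 and 3.15 in control 1 to 3, a difference of 0.11 (exact p = 0.1). The ratio of Igf2 to the signalling receptor gene Igf1r was higher in every cKO library as well, with a mean log2 of 5.75 ± 0.06 in cKO and 5.52 ± 0.16 in control libraries (SD, n = 3 each; exact p = 0.1). The ratio of Peg10 to Sgce differed by 0.13 in log2 with no overlap of the groups (exact p = 0.1). That of Mest to Copg2 differed by 1.247 in log2, at 3.78, 3.66 and 3.64 in cKO 1 to 3 against 2.41, 2.33 and 2.60 in control 1 to 3 (exact p = 0.1). The other pairs overlapped between the groups. These were Meg3 to Dlk1 (difference 0.16, exact p = 0.7, and -0.05 without cKO 1), Ndn to Magel2 (-0.27, exact p = 0.4) and Plagl1 to Igf2 (-0.105, exact p = 0.3).

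**Figure D3:**
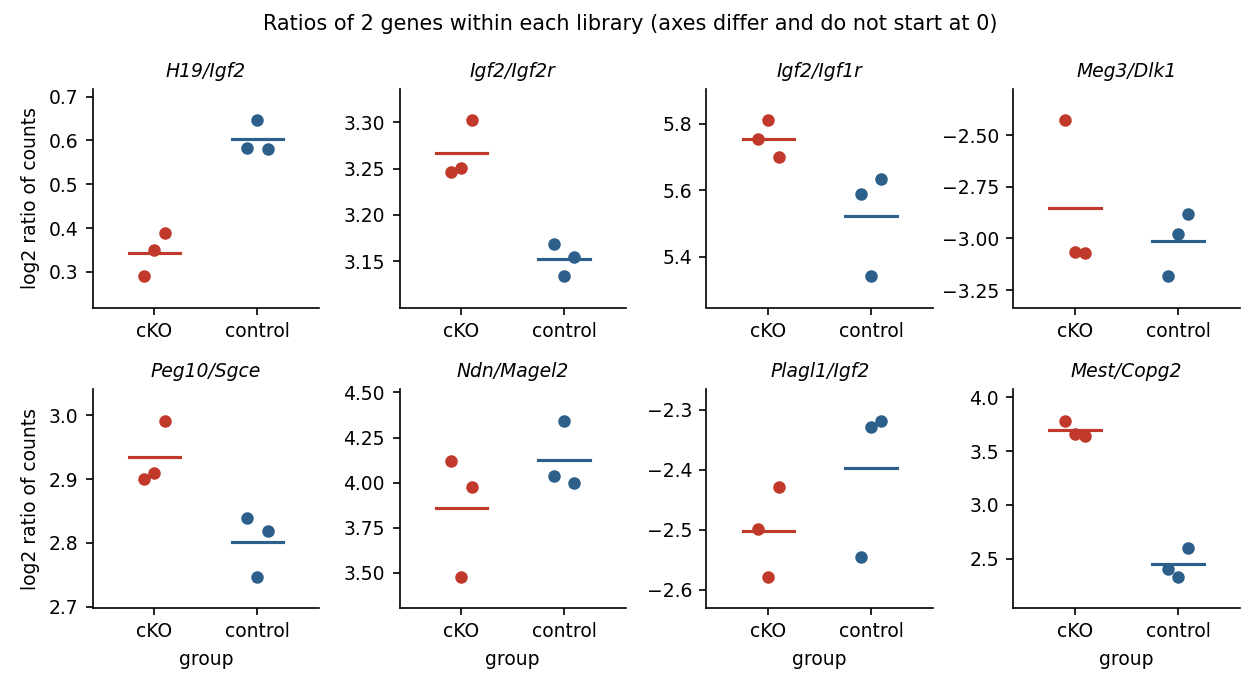
Log2 ratio of raw counts of 2 genes in each library, 1 panel per pair, Prmt5 cKO left (red) and control right (blue), with a line at each group mean; axes differ between panels and do not start at 0. The 3 cKO points lie below the 3 control points for H19/Igf2 and above them for Igf2/Igf2r, Igf2/Igf1r, Peg10/Sgce and Mest/Copg2, and the groups overlap in the other panels.

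Over all regions 53 of 59 other listed imprinted genes were tested, and whether each is imprinted in skin was not measured. With TMM scaling 20 were higher and 7 were lower, beside 16.3% higher and 19.6% lower over all genes tested. With fibroblast scaling 2 were higher and 24 lower, beside 2.01% and 54.8% over all genes. With muscle scaling 1 was higher and 39 lower, beside 0.947% and 78% over all genes. The median log2 fold change of these 53 genes was 0.16 with TMM scaling. In the members' own regions 36 genes were tested, of which 16 were higher and 4 were lower on that scale, with a median of 0.45. The region of Meg3 on chromosome 12 had 4 of 5 genes higher. Dlk1, a paternally expressed gene 77.7 kb from Meg3 for a transmembrane protein related to Notch ligands, measured 2188, 2282 and 1986 CPM in cKO 1 to 3, against 1435, 1098 and 1484 CPM in control 1 to 3. The log2 fold change of Dlk1 was 0.68 ± 0.11 (SE; adjusted p 0.00177 by edgeR). The retrotransposon-derived Rtl1 was at 0.82, and the noncoding Mirg and Rian were at 0.74 and 0.60. Dio3, a thyroid hormone deiodinase gene, was at 0.60 with an adjusted p of 0.0844 by edgeR and under 3 CPM in every library. In the Peg3 region Zim1 was higher at 0.67 ± 0.08 (SE) and Usp29 at 0.44 ± 0.12 (SE), and Usp29 missed the threshold without cKO 1, cKO 3 or control 2 (adjusted p 0.0622, 0.0617 and 0.0506 by edgeR).

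Near H19 and Igf2 on distal chromosome 7 the genes did not all go one way. Of 10 tested 3 were higher, Cd81 (log2 fold change 0.59), the growth-restraining cyclin-dependent kinase inhibitor gene Cdkn1c (0.49) and Tssc4 (0.23), and Osbpl5 was lower (-0.56). Over all genes tested 16.3% were higher and 19.6% lower. Cdkn1c measured 885, 881 and 918 CPM in cKO 1 to 3, against 648, 565 and 692 CPM in control 1 to 3, and had an adjusted p of 0.00114 by edgeR. The genes beside Peg10 on chromosome 6 were higher in 4 of 6 cases. Sgce, which starts 98 bp from Peg10 on the other strand and encodes epsilon-sarcoglycan, rose by 0.61 ± 0.06 (SE) and Asb4 by 0.44 ± 0.09 (SE) in log2. Ppp1r9a at 0.83 and Calcr at 3.17 passed as well, but Ppp1r9a missed the threshold without any 1 of the cKO libraries (adjusted p 0.05 to 0.0803 by edgeR). Calcr, at 1.18 CPM or less in every library, missed it without cKO 2, cKO 3 or control 1 (0.0729, 0.0570 and 0.0690). Pon2 was lower at -0.70 ± 0.05 (SE), and Pon3 was at -0.07 with an adjusted p of 0.723.

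The remaining regions were mixed. Copg2, which overlaps Mest by 912 bp on the opposite strand, was lower at -0.78 ± 0.06 (SE), and Klf14 was at 0.47 with an adjusted p of 0.0785 by edgeR. Klf14 passed the threshold with upper-quartile scaling, by limma-voom and without control 3 (adjusted p 0.0371 to 0.0448). Copg2 had 12.2% as many counts as Mest over all libraries, and the step that made the counts is not stated to use strand, so reads of the shared stretch cannot be assigned. The same holds for Igf2r and its antisense silencer Airn, which overlap by 28354 bp and of which Airn had 1.71% as many counts. Airn was at 0.52 ± 0.19 (SE; adjusted p 0.0689 by edgeR), and passed the threshold by DESeq2, by limma-voom, with upper-quartile scaling and without control 3 (adjusted p 0.0095 to 0.0345). Igf2os, antisense to Igf2 over 7124 bp, was at 0.38 ± 0.07 (SE; adjusted p 0.00398 by edgeR), chosen after its value was seen. Beside Grb10, Ddc was higher at 0.67 ± 0.09 (SE) and Cobl was lower at -0.66 ± 0.07 (SE). In the region of Ndn 2 of 7 genes were higher, beside 16.3% of all genes tested. These were Magel2 at 0.80 ± 0.21 (SE) and Peg12 at 0.46 ± 0.09 (SE). Magel2, a MAGE gene like Ndn and 26.7 kb away, measured 11.3, 16.3 and 11.8 CPM in cKO 1 to 3, against 7.89, 5.62 and 9.34 CPM in control 1 to 3, and missed the threshold without cKO 2 (adjusted p 0.0603 by edgeR). Snrpn, a paternally expressed gene for a splicing protein in the same region, was at -0.35 ± 0.12 (SE; adjusted p 0.0581 by edgeR) and passed the threshold without control 1 (0.0205) and with a replicate block (0.0486).

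**Figure D4:**
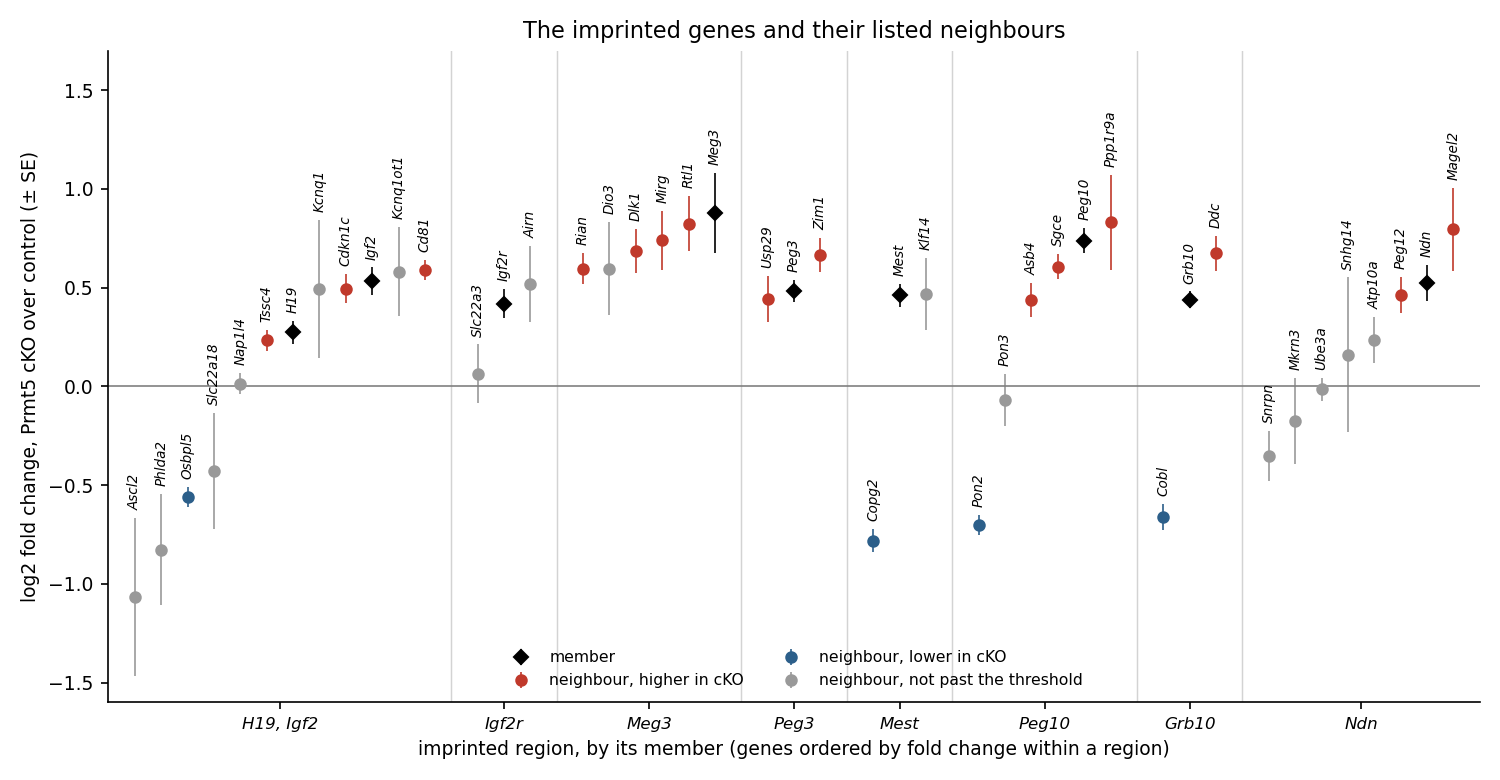
Log2 fold change (Prmt5 cKO over control, TMM scaling, bars of 1 SE) of the imprinted genes (black diamonds) and of their listed neighbours, by region; red, blue and grey circles are neighbours that were higher, lower or not past the threshold. Calcr, at 3.17, is above the axis and left out, and Plagl1 has no listed neighbour and is not drawn. Every black diamond is above 0 here. Over the 10 members, Plagl1 included, the sign turned for 8 with fibroblast scaling, of which H19 alone was called lower, and for 10 with muscle scaling.

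Among 17 imprinted genes tested from other regions 4 were higher and 3 were lower, beside 16.3% higher and 19.6% lower over all genes tested. Zdbf2, a zinc finger gene, measured 123, 118 and 128 CPM in cKO 1 to 3, against 60.8, 52.9 and 61.7 CPM in control 1 to 3, a log2 fold change of 1.08 ± 0.07 (SE; adjusted p 8.28e-06 by edgeR). Sfmbt2 (0.83), Gnas, which encodes a stimulatory G protein subunit (0.32), and Impact (0.18) were the others that rose, and Impact missed the threshold without any 1 library except cKO 2 (adjusted p 0.0563 to 0.133 by edgeR). The genes that fell were Ampd3 (-1.47 ± 0.09, SE), the amino acid transporter gene Slc38a4 (-1.25 ± 0.12, SE) and Rasgrf1 (-1.20 ± 0.30, SE). Slc38a4 measured 153, 154 and 109 CPM in cKO 1 to 3, against 324, 335 and 331 CPM in control 1 to 3. Rasgrf1 missed the threshold without control 3 (adjusted p 0.0585 by edgeR).

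The insulin-like growth factor pathway, in which IGF1 and IGF2 signal through the IGF1 receptor and are held in the matrix by binding proteins, had 9 of 15 tested genes higher and 1 lower with TMM scaling, against 1 higher and 4 lower with fibroblast scaling and 1 higher and 14 lower with muscle scaling. Over all genes tested 16.3% were higher and 19.6% lower with TMM scaling. These shares were 2.01% and 54.8% with fibroblast scaling, and 0.947% and 78% with muscle scaling. The median log2 fold change of the 15 pathway genes was 0.37 with TMM scaling. Igf1, the other ligand, measured 131, 163 and 162 CPM in cKO 1 to 3, against 96.6, 88.7 and 117 CPM in control 1 to 3. In log2 Igf1 was higher by 0.59 ± 0.12 (SE; adjusted p 0.00476 by edgeR). The receptor gene Igf1r rose by 0.30 ± 0.05 (SE), and the insulin receptor gene Insr was at 0.06 with an adjusted p of 0.465. The adaptor genes split, with Irs2 at 0.36 ± 0.08 (SE) and Irs1 at -0.63 ± 0.05 (SE).

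Of 10 genes for binding proteins and their proteases 6 were higher with TMM scaling, beside 16.3% of all genes tested. Igfbp2 stood out, at 169, 159 and 149 CPM in cKO 1 to 3, against 43.1, 44.0 and 48.5 CPM in control 1 to 3. The log2 fold change of Igfbp2 was 1.82 ± 0.07 (SE; adjusted p 4.49e-07 by edgeR). Igfbp7 was at 0.53, Igfbp4 at 0.44, Pappa2, a protease that frees IGF from its binding proteins, at 0.41, Igfbp5 at 0.38 and Igfbp3 at 0.37. Igfbp5 was the most abundant per length, with 175 CPM per kb in cKO and 134 CPM per kb in control skin. A list of genes for proteins that bind Igf2 mRNA, with Lin28b and Hmga2, had 0 of 5 tested genes called by edgeR, and 2 at an unadjusted p under 0.05. DESeq2 called 1 of them higher, Hmga2 at 0.32 (adjusted p 0.0166), where it called 14.2% of all genes higher. The limma-voom fit called 1 lower, Igf2bp2 at -0.17 (adjusted p 0.0441), where it called 19.9% of all genes lower. By edgeR Igf2bp2 was at -0.17 ± 0.06 (SE; adjusted p 0.0526), and it passed the threshold without cKO 1 (0.0175).

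Genes that keep imprints or handle DNA methylation moved both ways with TMM scaling, with 2 of 15 higher and 4 lower and a median of -0.02, beside 16.3% higher and 19.6% lower over all genes tested. Zfp57, which encodes a zinc finger protein that protects methylated imprints in the mouse embryo, measured 16.97, 16.4 and 13.7 CPM in cKO 1 to 3, against 7.84, 9.80 and 10.5 CPM in control 1 to 3. The log2 fold change of Zfp57 was 0.74 ± 0.14 (SE; adjusted p 0.00325 by edgeR). Tet1, a methylcytosine dioxygenase gene, was at 0.31 and missed the threshold without cKO 3 (adjusted p 0.0501 by edgeR). Those that fell were Tet3 (-0.58), Zfp445, also for an imprint-protecting zinc finger protein (-0.36), the maintenance methyltransferase gene Dnmt1 (-0.33) and Ctcf, whose protein binds the control region between H19 and Igf2 (-0.26). Trim28, the corepressor that Zfp57 recruits, was at 0.00 ± 0.05 (SE).

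RefSeq promoter windows (250 bases before to 50 after a start, GRCm38.p6) were matched for 8 members, all but H19 and Peg10, 15 windows in all. They were searched for GGGGCCCC, a motif reported for the Plagl1 protein that reads the same on both strands. Of these windows 1 held it, or 6.67%, against 1.08% of 32851 windows of all genes and 4.55% of 66 windows of the other listed imprinted genes. The window is that of Peg3 at chr7:6730370-6730669 on the minus strand, shown because Plagl1 and Peg3 were both higher here with TMM scaling, and capitals mark the motif.
Peg3 promoter: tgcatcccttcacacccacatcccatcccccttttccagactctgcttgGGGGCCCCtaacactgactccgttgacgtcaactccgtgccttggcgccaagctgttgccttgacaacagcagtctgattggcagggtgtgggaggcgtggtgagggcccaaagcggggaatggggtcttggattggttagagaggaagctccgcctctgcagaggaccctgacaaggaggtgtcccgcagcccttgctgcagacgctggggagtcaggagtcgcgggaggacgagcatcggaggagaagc
A match of letters is a description, and no binding was measured. Some windows are alternative starts of 1 gene, and those of Mest partly overlap, so a share resting on 1 window is uncertain.

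The direction of the 10 genes rests on the scaling of the libraries, since many genes changed, cell type markers among them. With TMM scaling the median fold change of all genes was -0.01 in log2, and the members lay 0.48 above it. Scaling to the dermal fibroblast list put the median of all genes at -0.58 and that of the members at -0.10. A scaling moves all genes by nearly the same amount, so the distance of 0.48 between them was kept by construction. With fibroblast scaling H19 was lower at -0.29 ± 0.13 (SE, adjusted p 0.0446 by edgeR). The other 9 were not called (adjusted p from 0.181 for Meg3 to 0.831 for Ndn, by edgeR). Of all genes 2.01% were called higher and 54.8% lower there. Scaling to the skeletal muscle list put the members' median at -0.51 and called 8 of them lower, where 78% of all genes were called lower and 0.947% higher. Scaling to the pan-epithelial list put it at 1.43, with all 10 called higher beside 79.7% of all genes. With the fibroblast list weighted by its counts, Meg3 at 0.28 ± 0.18 (SE) and Peg10 at 0.17 ± 0.17 (SE) were the members above 0, and neither passed the threshold. With equal weights for its genes, chosen after seeing the data, Igf2 (0.075), Ndn (0.064), Peg3 (0.016) and Mest (0.003) were above 0 too. There Meg3 at 0.40 was called higher (adjusted p 0.0356 by edgeR), beside 3.15% of all genes. H19, Igf2r, Plagl1 and Grb10 stayed below 0.

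**Figure D5:**
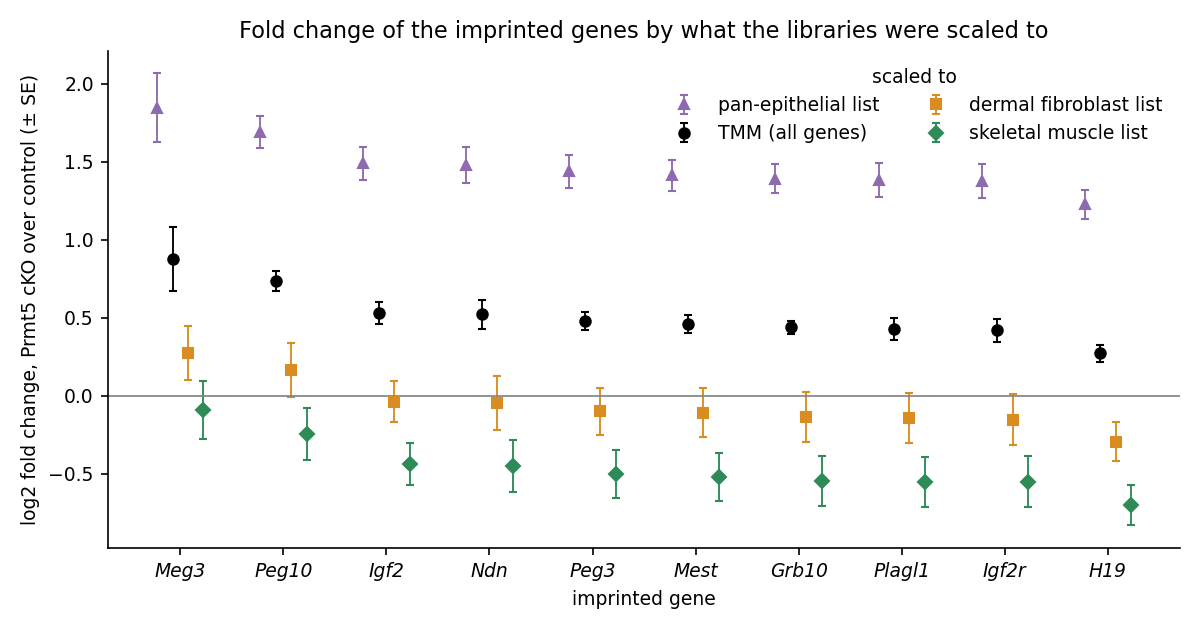
Log2 fold change (Prmt5 cKO over control, bars of 1 SE) of the 10 imprinted genes with libraries scaled to the pan-epithelial list (purple), by TMM (black), to the dermal fibroblast list (orange) or to the skeletal muscle list (green). In each of the 4 scalings Meg3 and Peg10 are highest and H19 is lowest, an order that a shift common to all genes keeps. The level moves from above 1 to below 0, with 8 genes below 0 at fibroblast scaling (H19 alone called lower) and 10 at muscle scaling.

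The authors' deposited tables give the same direction for the members. All 10 were higher in the authors' deposited DESeq2 table, which had 14.4% of its genes higher at an adjusted p under 0.05, with log2 fold changes from 0.29 for H19 to 0.89 for Meg3. The authors' deposited Sleuth table lists 8 of the 10, all but H19 and Meg3. All 8 had a positive b at a q under 0.05, from 0.27 for Igf2r to 0.49 for Peg10, beside 14.8% of that table's genes. The scale of b is not stated and was taken as the natural log, since its median ratio to the log2 fold change was 0.661, near 0.693, the natural log of 2.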

How the data were processed

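RNA of E15.5 back skin from 3 Prmt5 cKO and 3 control embryos was sequenced as stranded mRNA libraries, per the labels' protocols. The authors deposited whole-number counts per gene, with log2 fold changes and adjusted p-values from DESeq2 beside them, and Sleuth b values, taken here as natural log, with q-values, per the file headers. STAR, StringTie and DESeq2 with mm10 are named in the submitters' processing notes; no source used here gives the counting step, its use of strand or the annotation release. The deposited counts sum to more than the reads stated in the labels, so a count may not be 1 read.

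The 10 members were matched by gene name. edgeR 4.0.16 in R 4.3.3 was run on the counts of all genes (filterByExpr, TMM, quasi-likelihood test, no other term), with Benjamini-Hochberg adjustment over 19227 genes and a threshold of 0.05. SEs come from the fold change and its F statistic. CPM per kb divides CPM by summed exon length in GENCODE M21 (GRCm38), in which 99.5% of identifiers were found, versions ignored. A DESeq2 1.42.0 fit gave the deposited log2 fold changes within 0.01 for 100% of 30591 genes. limma 3.58.1 (voom) and Python 3.11.15 were also used. Within-library ratios were tested by exact two-sided permutation of 3 against 3. The labels number the replicates in both groups, but same-numbered libraries did not deviate together (correlations of -0.079, -0.043 and -0.062), so no block was used in the fit. Each library is from its own embryo, and no batch is labelled.

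The members, the 13 gene lists, the 10 marker lists and the pairs were chosen with earlier results of these data known, and so support nothing by their choice. Named beside the members were up to 4 called genes of each list with the largest change, its most abundant gene per length, the genes behind counts of 5 or fewer, up to 2 called genes of a marker list and the gene nearest in pattern to each member. The edgeR step was tested on simulated counts. It recovered 6% of genes changed by a fold of 1.25, 16% at 1.4, 86% at 2 and 100% at 4. A gene that was not called can thus still differ by a small fold.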

Additional observations from a re-analysis of the deposited data

How the results depend on the processing

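All 10 members stayed higher and past the threshold with RLE and upper-quartile scaling, without a filter, with a CPM filter, by DESeq2 and limma-voom. The same held in the authors' deposited DESeq2 table, with a replicate block, without muscle, erythroid and sex chromosome genes, and without each library in turn. At an adjusted p of 0.01, 9 stayed higher, all but Meg3. Of all genes, 17.2% were called higher with RLE scaling, 23.5% with upper-quartile scaling, 9.49% without a filter and 20.5% with a CPM filter. The shares were 14.2% by DESeq2, 16.6% by limma-voom, 14.4% in the deposited table and 14.2% with the block. Without muscle, erythroid and sex chromosome genes 16.9% were higher, and at an adjusted p of 0.01 9.49% were. Without each library in turn 5705 to 5897 genes were called, against 6906 with all, and the members' fold changes ranged from 0.23 for H19 to 1.04 for Meg3. Among other imprinted genes 17 to 21 were higher and 7 to 8 lower, and among IGF pathway genes 9 to 10 were higher and 1 lower. Of all genes tested 12.4% to 14.1% were higher and 15.2% to 16.7% lower without each library in turn. In the same runs the cKO minus control difference in the log2 ratio of H19 to Igf2 ranged from -0.28 to -0.23. At an adjusted p of 0.01, 4398 genes were called. The replicate block called 6098 genes; it ended the calls of Magel2 (adjusted p 0.052 by edgeR) and Impact (0.0559) and added Snrpn (0.0486).

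The scalings to marker lists changed the calls because they move all genes: their medians were -0.58 (fibroblast), -0.99 (muscle) and 0.95 (pan-epithelial). The fibroblast list called 10929 genes, 0 members higher and 1 lower, 2 other imprinted genes higher and 24 lower, and 1 IGF pathway gene higher and 4 lower. The muscle list called 15178 genes, 0 members higher and 8 lower, 1 other imprinted gene higher and 39 lower, and 1 IGF pathway gene higher and 14 lower. Of all genes the fibroblast list called 2.01% higher and 54.8% lower, and the muscle list 0.947% higher and 78% lower. The pan-epithelial list called 16136 genes, 45 other imprinted genes higher and 1 lower, and 15 IGF pathway genes higher and 0 lower. It called 79.7% of all genes higher and 4.2% lower. A fibroblast scaling with equal gene weights, chosen after seeing the data, called 10616 genes, 1 member higher (Meg3), 3 other imprinted genes higher and 22 lower, and 1 IGF pathway gene higher and 4 lower. That scaling called 3.15% of all genes higher and 52.1% lower. Fold changes that turned negative with the fibroblast list were -0.29 (H19), -0.036 (Igf2), -0.15 (Igf2r), -0.10 (Peg3), -0.11 (Mest), -0.14 (Plagl1), -0.13 (Grb10) and -0.047 (Ndn). With the muscle list they were -0.70 (H19), -0.44 (Igf2), -0.55 (Igf2r), -0.09 (Meg3), -0.50 (Peg3), -0.52 (Mest), -0.55 (Plagl1), -0.54 (Grb10), -0.45 (Ndn) and -0.24 (Peg10), and with equal weights -0.18 (H19), -0.04 (Igf2r), -0.032 (Plagl1) and -0.021 (Grb10). Adding 1 count to both genes moved no ratio by more than 0.002. With 3 libraries a group, the exact test of a ratio cannot pass the threshold.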

Other observations

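Markers of other cell types that skin can hold were measured beside the imprinted genes, and their part in the members' values was not tested. Over all genes tested edgeR called 16.3% higher and 19.6% lower. Of the endothelial list 9 of 10 genes were higher in Prmt5 cKO skin (median log2 fold change 0.32), with sums of 887 to 976 CPM in cKO and 688 to 787 CPM in control libraries. Leukocyte markers were higher in 4 of 8 genes, Mrc1, C1qa, C1qc and Tyrobp, by edgeR (median 0.41), in all 8 by DESeq2 and in 6 by limma-voom, with sums of 413 to 472 CPM in cKO and 302 to 391 CPM in control libraries. In the adipocyte lineage list 4 of 7 genes tested were higher (Adipoq, Cidea, Lpl and Cd36) and Cebpa was lower, and the sums were 364 to 714 CPM in cKO and 340.0 to 404 CPM in control libraries; Adipoq was at 0.00, 53.4 and 9.56 CPM in cKO 1 to 3, against 0.00, 0.06 and 0.28 CPM in control 1 to 3. Schwann cell and neuron markers had 1 of 8 higher (Sox10) and 2 lower (Mbp and Stmn2), with sums of 91.0 to 109 CPM in cKO and 103 to 111 CPM in control libraries. The erythroid list had 0 of 8 genes called by edgeR and 0 by limma-voom, 1 by DESeq2 and 2 at an unadjusted p under 0.05, with sums of 5712 to 10990.0 CPM in cKO and 4251 to 6785 CPM in control libraries. Cartilage markers, with 0 of 8 called by edgeR, DESeq2 or limma-voom and 0 at an unadjusted p under 0.05, summed to 15.1 to 17.9 CPM in cKO and 9.90 to 15.3 CPM in control libraries.

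The miRNA gene Mir675, which lies in H19, had 768 counts over all libraries, at 3.44 CPM in cKO and 1.58 CPM in control libraries on average, with a log2 fold change of 1.11 ± 0.38 (SE) and an adjusted p of 0.0511 by edgeR. Its reads lie in the H19 exon and cannot be told from H19 itself.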
